A study of Mus musculus with 1024 samples.

Results

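The 10 genes described here encode the TGF-beta ligands (Tgfb1, Tgfb2, Tgfb3), their receptors (Tgfbr1, Tgfbr2, Tgfbr3), the receptor-activated transducers Smad2 and Smad3, and the latent TGF-beta binding proteins Ltbp1 and Ltbp3. They were chosen by name, as members of a pathway central to aortic aneurysm, from the 24422 genes counted in single cells of the mouse aorta. All 10 were found in the count table. The cells came from WT and KO mice aged 3 months of the strain labelled Amotl2flow/flow / Cdh5-RREert /ROSA26-EYFP, on a C57BL/6 background. The labels list the same alleles for both genotypes. In KO mice, floxed Amotl2 was deleted after tamoxifen by Cdh5(PAC)CreERT2, a Cre driven by the promoter of an endothelial cadherin gene, and recombination of the ROSA26 locus switches on EYFP. The sort gates gave the cell type labels, Cd31+Cd45- (labelled Endothelial) and Cd31-Cd45- (labelled DoubleNegative). The labels number 2 sorts per genotype and name no single mouse. Each sort, called a preparation here, was taken as the replicate.

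TGF-beta is secreted in a latent form, bound to its own propeptide and tethered to the matrix by latent binding proteins. Once released, it brings together the type II receptor Tgfbr2 and the type I receptor Tgfbr1, a kinase that phosphorylates Smad2 and Smad3, which then enter the nucleus with Smad4. Tgfbr3 (betaglycan) is a co-receptor that presents ligand, in particular Tgfb2. In the aorta the pathway is known for its part in smooth muscle contractile and matrix gene expression, and inherited variants of several of these genes cause aortic aneurysm.

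Each of the 1024 wells held 1 sorted cell sequenced with Smart-seq2, which amplifies full-length cDNA. Without molecular identifiers in this method, each count stands for a read. Wells were kept where genes held 20000 counts or more and 500 or more were detected, 784 in all, 676 Cd31+ and 108 Cd31-. They were summed by gate, genotype and preparation into 8 sums, and levels are given as CPM, the counts of a gene scaled to the total of its sum. The Cd31+ sums held 235 and 50 WT wells and 302 and 89 KO wells (preparations 1 and 2), and the Cd31- sums 42, 12, 40 and 14 in the same order. The sums ranged from 926398 to 94881185 counts. In preparation 1 each genotype filled its own plate, and the effect of plate cannot be told apart from that of genotype. EYFP stood at 2.38 and 0.353 CPM in the WT and at 113 and 85.5 CPM in the KO Cd31+ sums, in the direction of the labels. Amotl2 stood at 59.9 and 94.0 CPM in WT, with 51.9 and 45.7 CPM in KO, but counts per gene do not resolve the deleted exon.

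The gate labels were checked against cell type markers. The 10 endothelial markers summed to between 14408 and 17022 CPM in the Cd31+ sums and to between 24.8 and 1233 CPM in the Cd31- sums, with Kdr and Emcn at 0 in every Cd31- sum. The highest of the latter, WT preparation 2, held 1 well that clustered with endothelial cells. Clustering placed 70 Cd31- wells in a smooth muscle-like and 37 in a fibroblast-like cluster. It also placed 14 Cd31+ wells in the smooth muscle-like and 2 in the fibroblast-like cluster. The leukocyte markers did not exceed 11.8 CPM in sum in any of the 8 sums, and Ptprc, the gene of Cd45, was at 0 in 7 of them.

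The gates separated 2 of the 3 ligands, 1 receptor and 1 latent binding protein. Ltbp1, Tgfb3, Tgfb2 and Tgfbr1 were higher in Cd31- than in Cd31+ cells, while Tgfbr2, Tgfbr3, Smad2, Smad3, Ltbp3 and Tgfb1 did not pass the test. Of all 12729 genes tested with edgeR, 9.25% were called higher and 9.79% lower in Cd31- cells at an adjusted p of 0.05, against 4 of the 10 members higher and 0 lower. In 5 of the 10 members (4 higher, 1 lower) the Cd31- and the Cd31+ sums did not overlap, which was the case for 26.2% of all genes tested. The median log2 fold change was 0.38 over the 10 members and -0.15 over all genes tested.

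**Figure D1:**
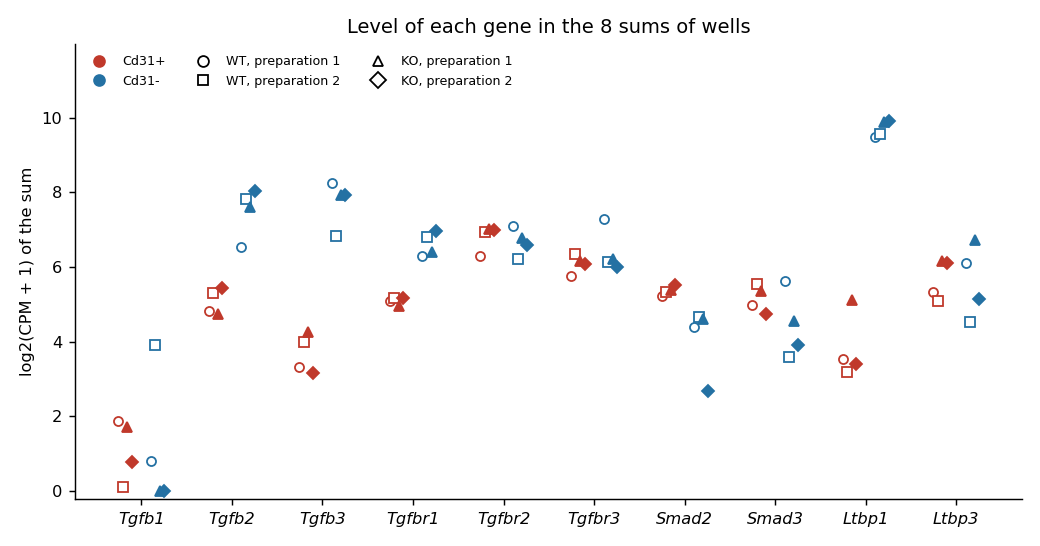
Level of each of the 10 genes, as log2(CPM + 1), in the 8 sums of wells. Colour gives the gate, marker shape the genotype and preparation. The Cd31- points of Ltbp1, Tgfb3, Tgfb2 and Tgfbr1 lie above all Cd31+ points, the gates overlap for Tgfbr2 and Tgfbr3, and Tgfb1 lies lowest in every sum but Cd31- WT preparation 2.

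Ltbp1 binds the latent TGF-beta complex and anchors it to fibrillin and fibronectin in the matrix. Its gene, ENSMUSG00000001870, spans positions 75005568 to 75392512 of chromosome 17 (GRCm38, plus strand). In Cd31- cells Ltbp1 stood at 717 and 756 CPM in WT, with 950 and 967 CPM in KO (preparations 1 and 2). In Cd31+ cells it stood at 10.6 and 8.21 CPM in WT, with 33.9 and 9.56 CPM in KO. The ranges were far apart, with a log2 fold change of 6.00 (SE 0.45, edgeR adjusted p = 0.000154). Between 85.7% and 100% of the wells of each Cd31- sum had an Ltbp1 count, against 5.11% to 10.3% of the wells of each Cd31+ sum.

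The Ltbp1 counts of the Cd31+ gate came mostly from few wells. The 14 Cd31+ wells in the smooth muscle-like cluster held 75.6% of all 3810 counts, and the 2 in the fibroblast-like cluster another 7.03%. Pooled, these 14 wells stood at 931 CPM, against 1166 CPM in the smooth muscle-like wells of the Cd31- gate. By sum they stood at 650 (5 wells) and 529 CPM (1 well) in WT. In KO they stood at 1030 (6 wells) and 273 CPM (2 wells). A single well of KO preparation 1 held 1384 of the 3810 counts. The 638 Cd31+ wells in endothelial clusters stood at 3.86 CPM. With only wells of clusters that fit their gate, the log2 fold change of Ltbp1 between gates was 7.70.

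Tgfb3, a ligand expressed in mesenchymal cells, is encoded on chromosome 12 (ENSMUSG00000021253, 86056745 to 86079041, minus strand). In Cd31- cells it stood at 306 and 113 CPM in WT, with 242 and 245 CPM in KO. In Cd31+ cells it stood at 8.96 and 15 CPM in WT, with 18 and 7.91 CPM in KO. The gates did not overlap (log2 fold change 4.31, SE 0.45, edgeR adjusted p = 0.000445). Tgfb2, a ligand that binds Tgfbr2 weakly unless Tgfbr3 is present, lies on chromosome 1 (ENSMUSG00000039239, 186622792 to 186705989, minus strand). It stood at 92.1 and 225 CPM in WT, with 193 and 260 CPM in KO Cd31- cells. In Cd31+ cells it stood at 27.3 and 38.8 CPM in WT, with 25.8 and 42.4 CPM in KO. The difference was smaller than that of Tgfb3, and again without overlap (log2 fold change 2.60, SE 0.39, edgeR adjusted p = 0.00229). The 638 Cd31+ wells in endothelial clusters held 64.7% of the Cd31+ counts of Tgfb2 (19.1 CPM) and 73.6% of those of Tgfb3 (11.5 CPM). The 14 smooth muscle-like Cd31+ wells held 14.3% and 24.4%, and 22 wells of an unnamed cluster held 19.6% of the Tgfb2 counts.

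Tgfb1, the ligand best known from platelets and leukocytes, was the lowest of the 3 ligands in both gates. Its gene is ENSMUSG00000002603 (chromosome 7, 25687002 to 25705077, plus strand). In Cd31+ cells it stood at 2.68 and 0.088 CPM in WT, with 2.28 and 0.708 CPM in KO. The Cd31- sums held 5 and 14 counts in WT, or 0.754 and 14.2 CPM, and 0 counts in both KO sums. Of the 14 counts in WT preparation 2, 13 came from the 1 well that clustered with endothelial cells. Among KO wells of the Cd31- gate 0 of 54 had a Tgfb1 count. By counting error this leaves room for up to 5.56% of wells with a count (3 wells) and sets no limit on cells that express the gene. The test did not call Tgfb1 (edgeR adjusted p = 0.506).

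The receptors differed in their pattern. Tgfbr1 (chromosome 4, ENSMUSG00000007613, 47353222 to 47414931, plus strand) stood at 77.3 and 110 CPM in WT, with 83.2 and 123 CPM in KO Cd31- cells. In Cd31+ cells it was within a narrow range, at 33.2 and 35.3 CPM in WT, with 30.0 and 34.8 CPM in KO. The log2 fold change was 1.67 (SE 0.30, edgeR adjusted p = 0.00615), and the call was lost without KO preparation 1 (adjusted p = 0.0576) and without KO preparation 2 (0.0763). Tgfbr2 (chromosome 9, ENSMUSG00000032440, 116084293 to 116175360, minus strand) stood at 77.2, 123, 129 and 126 CPM in the Cd31+ sums (WT preparations 1 and 2, then KO). Its Cd31- values, 135, 72.9, 109 and 95 CPM in the same order, lay on both sides of these, with a log2 fold change of -0.01 (SE 0.30). Tgfbr3 (chromosome 5, ENSMUSG00000029287, 107106570 to 107289629, minus strand) stood at 53.6, 81.4, 70.5 and 67.4 CPM in Cd31+ and at 154, 69.8, 74.1 and 62.6 CPM in Cd31- cells. Only the WT preparation 1 value stood above the Cd31+ range, and the difference was not called (log2 fold change 0.48, edgeR adjusted p = 0.371).

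Neither SMAD was called between the gates. Smad2 stood at 36.3, 39.2, 41.0 and 44.9 CPM in Cd31+ and at 20.05, 24.3, 23.4 and 5.40 CPM in Cd31- cells. Every Cd31- value lay below every Cd31+ value, but the log2 fold change of -1.03 did not pass the test (SE 0.46, edgeR adjusted p = 0.165). Smad3 (chromosome 9, ENSMUSG00000032402, 63646767 to 63757994, minus strand) stood at 30.9, 46.0, 39.8 and 26 CPM in Cd31+ and at 48.8, 11.1, 22.6 and 14 CPM in Cd31- cells, with overlap. Ltbp3, a latent binding protein of the same family as Ltbp1, lies on chromosome 19 (ENSMUSG00000024940, 5740904 to 5758532, plus strand). It did not share the pattern of Ltbp1, with 39.6, 33.4, 70.8 and 68.4 CPM in Cd31+ and 67.7, 22.3, 104 and 34.5 CPM in Cd31- cells.

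**Figure D2:**
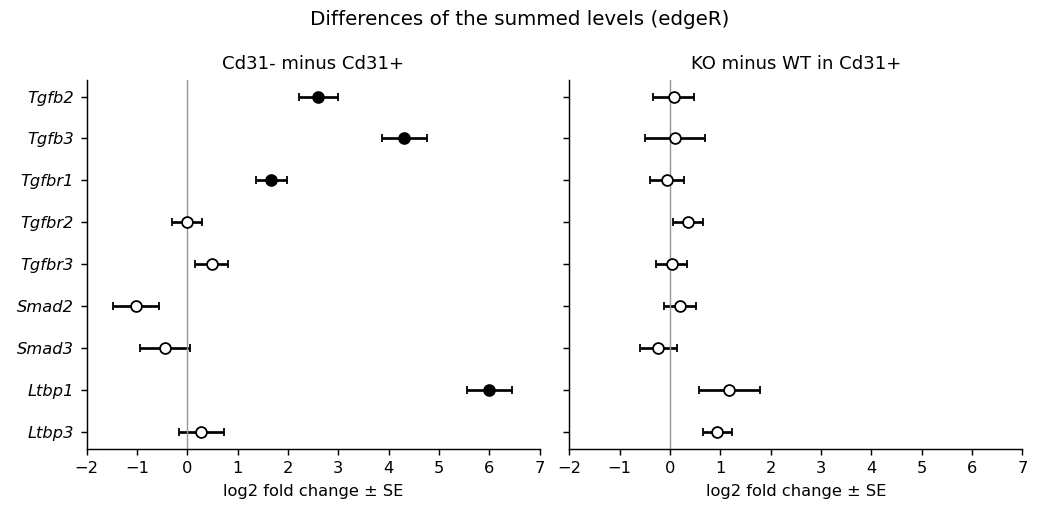
Log2 fold change with its SE (bars) for 9 of the 10 genes between gates (left) and between genotypes in Cd31+ cells (right), from edgeR on the summed counts. Filled points passed an adjusted p of 0.05; Tgfb1 is not drawn, since both Cd31- KO sums are at 0. Ltbp1, Tgfb3, Tgfb2 and Tgfbr1 are filled on the left and no point is filled on the right.

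The upstream sequences of Ltbp1, Tgfbr1 and Tgfbr2 are shown because Ltbp1 and Tgfbr1 were both higher in Cd31- cells and the partner receptor gene Tgfbr2 was not. They are the 250 bases before starts given by RefSeq on GRCm38.p6, read on the strand of the gene, and hold no annotated exon. Capitals mark CAGAC, the core of the element that SMAD proteins bind, and GGGCGG, the GC box bound by Sp-family factors, each searched on both strands (GTCTG and CCGCCC are the reverse complements).
Ltbp1, chr17:75005279-75005528, plus strand: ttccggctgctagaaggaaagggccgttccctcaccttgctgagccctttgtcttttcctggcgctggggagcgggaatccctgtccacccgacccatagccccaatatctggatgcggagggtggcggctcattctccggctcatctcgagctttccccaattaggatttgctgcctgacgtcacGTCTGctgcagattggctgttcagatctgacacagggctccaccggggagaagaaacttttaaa
Ltbp1, second start, chr17:75178531-75178780, plus strand: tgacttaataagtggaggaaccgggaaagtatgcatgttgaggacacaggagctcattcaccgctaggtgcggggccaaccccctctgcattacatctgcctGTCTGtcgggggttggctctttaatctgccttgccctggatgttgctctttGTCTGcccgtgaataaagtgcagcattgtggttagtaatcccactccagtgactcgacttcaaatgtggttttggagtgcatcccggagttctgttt
Tgfbr1, chr4:47352972-47353221, plus strand: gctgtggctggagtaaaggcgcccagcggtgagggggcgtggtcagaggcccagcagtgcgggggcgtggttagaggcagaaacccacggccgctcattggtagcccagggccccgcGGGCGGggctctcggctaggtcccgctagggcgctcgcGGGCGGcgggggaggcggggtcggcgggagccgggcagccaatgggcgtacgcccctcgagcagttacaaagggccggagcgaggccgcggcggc
Tgfbr1, second start, chr4:47385966-47386215, plus strand: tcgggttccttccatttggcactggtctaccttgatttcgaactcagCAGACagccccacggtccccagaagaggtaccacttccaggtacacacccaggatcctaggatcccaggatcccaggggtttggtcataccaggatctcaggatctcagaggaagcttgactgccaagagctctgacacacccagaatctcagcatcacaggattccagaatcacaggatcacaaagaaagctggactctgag
Tgfbr2, chr9:116175364-116175613, minus strand: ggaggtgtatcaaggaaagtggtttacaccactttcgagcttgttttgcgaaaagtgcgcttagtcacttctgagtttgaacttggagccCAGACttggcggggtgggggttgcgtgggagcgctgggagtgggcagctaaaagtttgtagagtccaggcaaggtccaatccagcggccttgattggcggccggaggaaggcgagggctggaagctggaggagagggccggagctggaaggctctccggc
Ltbp1 had 1 CAGAC match before its first start and 2 before its second, and no GC box. Tgfbr1 had no CAGAC and 2 GC boxes before its first start, in a window of 74.8% G and C, and 1 CAGAC and no GC box before its second. Tgfbr2 had 1 CAGAC and no GC box. Of 32851 windows of the same length, 42.2% held CAGAC and 32.7% held GGGCGG, so neither match is uncommon.

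Per kilobase of exonic sequence, which allows levels of different genes to be compared, the order of the members differed between the gates. Over all Cd31+ wells, Tgfbr2 was the highest at 14.1 CPM per kilobase, followed by Tgfbr3 at 10.2, but their ranges over the 4 sums overlapped (9.44 to 15.8 and 8.19 to 12.4). Smad3, Ltbp3, Tgfb2, Tgfbr1, Smad2 and Tgfb3 followed between 6.71 and 4.41 CPM per kilobase, in an order that varied between sums. Ltbp1 was ninth at 2.30 CPM per kilobase, a value that rested on KO preparation 1 (3.17, against 0.768 to 0.988 in the other Cd31+ sums). Tgfb1 was last at 0.423 CPM per kilobase. In Cd31- wells Ltbp1 was first at 79.9 and Tgfb3 second at 76.5 CPM per kilobase, also with overlapping ranges (67.1 to 90.5 and 33.5 to 90.6). Tgfb2 came next at 27.8 CPM per kilobase (15.9 to 44.9). The receptors Tgfbr3 (9.57 to 23.6), Tgfbr2 (8.90 to 16.5) and Tgfbr1 (11.8 to 18.8) overlapped with each other and with Tgfb2, and Tgfbr1 was the highest receptor in both sums of preparation 2. Tgfb1 was again last over all wells at 0.210 CPM per kilobase, but not in WT preparation 2 (2.81). With the longest transcript as the length, Ltbp1 stood at 128 CPM per kilobase in Cd31- wells, and Ltbp3 (10.5) passed Smad3 (7.31) in Cd31+ wells.

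The share of wells with a count was higher in Cd31- cells for each of the 4 called members over all wells of a gate. With each well thinned to 20000 counts, 89.8% of Cd31- and 5.18% of Cd31+ wells had an Ltbp1 count. For Tgfb3 the shares were 67.6% and 9.62%, for Tgfb2 56.5% and 14.3%, and for Tgfbr1 44.4% and 21.7%. The shares of Tgfbr1 in single sums overlapped, at 31.0% to 66.7% in Cd31- and 15.9% to 32% in Cd31+ cells. The shares of Tgfbr2 were close to each other at 54.6% and 47.9%. Before thinning, the Ltbp1 share was 92.6% of Cd31- wells (95% exact binomial interval 85.9% to 96.7%) and 8.14% of Cd31+ wells (6.19% to 10.5%), and the intervals cover counting error only. At least 1 of the 10 genes had a count in all 108 Cd31- wells, whereas 35 of the 676 Cd31+ wells had none.

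**Figure D3:**
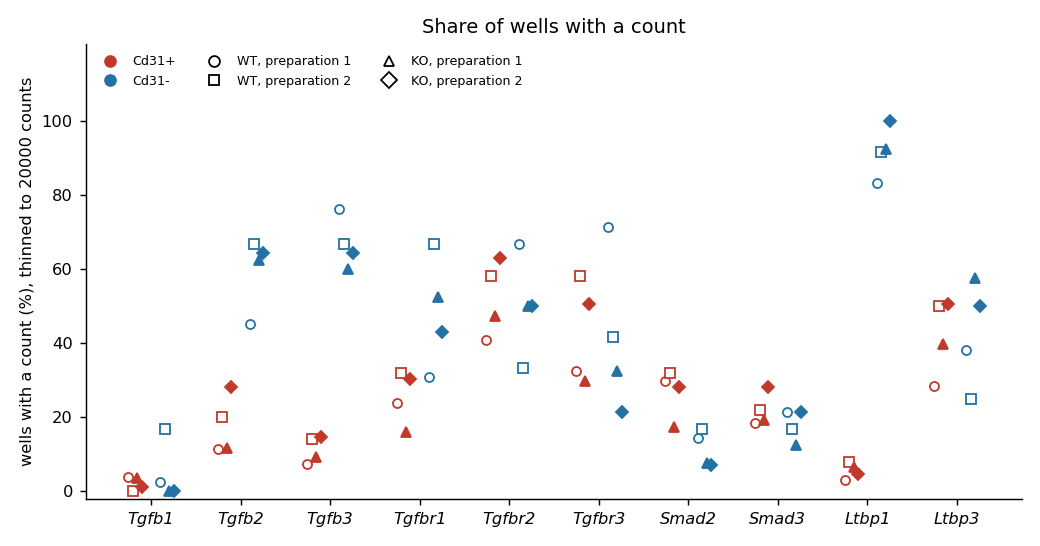
Percent of wells with at least 1 count of each gene in each of the 8 sums, after every well was thinned to 20000 counts. The Cd31- points of Ltbp1, Tgfb2 and Tgfb3 lie above all Cd31+ points, those of Smad2 lie below them, and the gates overlap for the other genes.

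Within the Cd31- gate the members divided between smooth muscle-like and fibroblast-like wells. The members were left out of the genes used for clustering. The classes are groups of cells and not samples, and the differences were not tested. Ltbp1 was higher in the smooth muscle-like wells, at 1440 (WT) and 1130 CPM (KO) of preparation 1, against 286 and 352 CPM in the fibroblast-like wells of the same sums. Tgfb3 had the opposite order, at 104 and 163 CPM in smooth muscle-like and 427 and 504 CPM in fibroblast-like wells. Both receptors Tgfbr2 and Tgfbr3 followed Tgfb3. Tgfbr2 stood at 61.4 and 52.3 CPM in smooth muscle-like and at 179 and 298 CPM in fibroblast-like wells. Tgfbr3 stood at 62.6 and 25.9 CPM against 209 and 234 CPM. Smad3 was likewise lower in smooth muscle-like wells, at 23.4 and 16.5 CPM against 64.0 and 42.6 CPM, but these values rested on few wells. A Smad3 count was found in 2 of 16 (WT) and 6 of 31 (KO) smooth muscle-like wells. In fibroblast-like wells it was found in 12 of 26 (WT) and 2 of 9 (KO). Of the smooth muscle-like Smad3 counts, 1 well held 84.5% in WT and 1 held 62.5% in KO. Tgfb2 was higher in smooth muscle-like wells, at 159 and 209 CPM against 52.4 and 141 CPM, and the ranges of Tgfbr1 overlapped between the classes, at 161 and 82.0 CPM in smooth muscle-like and 27.7 and 87.0 CPM in fibroblast-like wells. These values come from 16 and 31 smooth muscle-like and 26 and 9 fibroblast-like wells. Preparation 2 had 1 fibroblast-like well per genotype, so it allows no such comparison.

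**Figure D4:**
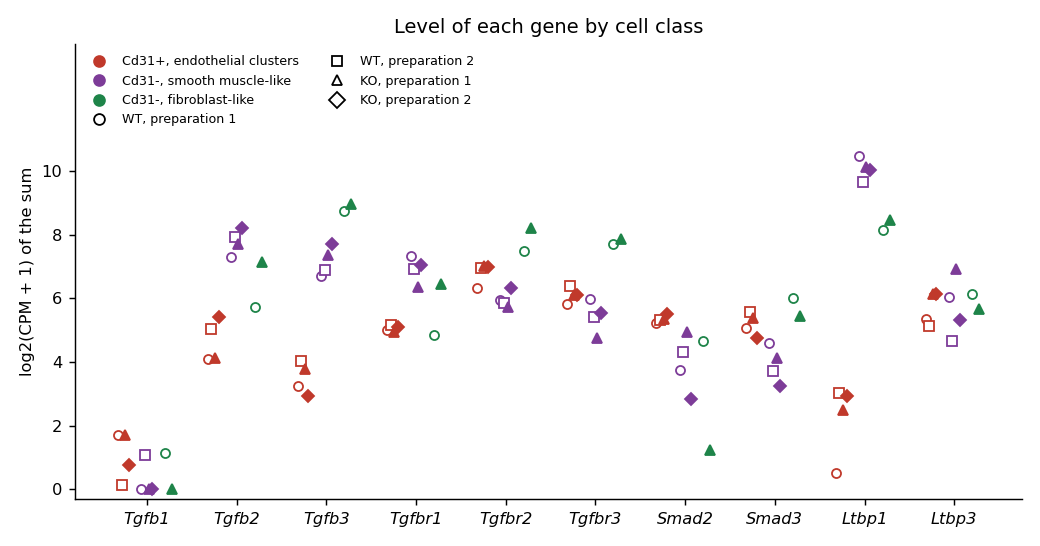
Level of each gene, as log2(CPM + 1), in Cd31+ wells of endothelial clusters and in smooth muscle-like and fibroblast-like Cd31- wells, by genotype and preparation, for sums of at least 5 wells. Ltbp1 is highest in smooth muscle-like wells, and Tgfb3, Tgfbr2 and Tgfbr3 are highest in fibroblast-like wells.

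The Cd31+ wells formed several clusters that differed in the members. An unnamed cluster of 22 wells stood at 202 CPM for Tgfb2, with a count in 15 wells. In the other Cd31+ clusters, Tgfb2 stood between 10.6 and 25.5 CPM, the smooth muscle-like and fibroblast-like wells left aside. A cluster of 33 endothelial wells, with Kdr among its leading genes, stood at 281 CPM for Tgfbr2 and 283 CPM for Tgfbr3. Both were higher in KO than in WT wells of this cluster in preparation 1 (403 against 175 CPM, and 458 against 137 CPM), but 1 of the 11 KO wells held 41.4% of the Tgfbr2 and 1 held 47.2% of the Tgfbr3 counts. A cluster of 153 wells led by MHC class II genes, nearly all of them (152) from WT preparation 1, stood at 0.259 CPM for Ltbp1 and 68.4 CPM for Tgfbr2.

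The comparison of KO with WT asks whether endothelial loss of Amotl2 went with a change of these genes. In Cd31+ cells edgeR called 0 of the 10 members and 0% of 12702 genes. At an unadjusted p of 0.05, 468 genes and 1 member, Ltbp3, passed, and DESeq2 called 37 genes and 0 members. EYFP, at a log2 fold change of 6.00 (SE 0.64), had an edgeR adjusted p of 0.0596, and it was the only gene called with the preparation as a replicate block (adjusted p = 0.000611) and with RLE factors (0.0483). The median log2 fold change was 0.09 over the 10 members and 0.00 over all genes tested. In 3 of the 10 members both KO sums lay above both WT sums (Ltbp3, Tgfbr2 and Smad2), while 29.5% of all genes tested had no overlap in one direction or the other.

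Ltbp3 stood at 39.6 and 33.4 CPM in WT, with 70.8 and 68.4 CPM in KO Cd31+ cells. The KO values were higher in both preparations, with a log2 fold change of 0.94 (SE 0.29, unadjusted p = 0.00985, edgeR adjusted p = 0.9995). It was 0.93 in the wells of endothelial clusters and between 0.84 and 1.04 with each replicate left out, and was called in none of these. Ltbp1 had a log2 fold change of 1.18 (SE 0.60) that rested on KO preparation 1, and it was 0.13 without that sum and 0.62 (SE 1.18) in the wells of endothelial clusters. In KO preparation 1, the 6 smooth muscle-like Cd31+ wells held 76.5% of the Ltbp1 counts. Tgfbr2 had a log2 fold change of 0.36 (SE 0.30), with KO above WT mainly in preparation 1 (129 against 77.2 CPM) and hardly in preparation 2 (126 against 123 CPM). The log2 fold changes of Tgfb2 (0.07), Tgfb3 (0.09), Tgfbr1 (-0.07), Tgfbr3 (0.04), Smad2 (0.20) and Smad3 (-0.23) were smaller than their SE, which were between 0.31 and 0.59. Tgfb3 and Smad3 moved in opposite directions in the 2 preparations, with Smad3 at 30.9 CPM in WT and 39.8 in KO in preparation 1 and at 46.0 in WT and 26 in KO in preparation 2.

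In Cd31- cells 9 of the members were tested and edgeR called 0 of them, with 0% of 10544 genes called. At an unadjusted p of 0.05, 275 genes and 0 members passed, and DESeq2 called 5 genes and 0 members. Only Ltbp1 had both KO sums above both WT sums (log2 fold change 0.40, SE 0.47), while 28.7% of all genes tested had no overlap. Tgfb2 was higher in KO in both preparations (193 against 92.1 CPM, and 260 against 225 CPM), with a log2 fold change of 0.56 (SE 0.57). Ltbp3 was also higher in KO in both (104 against 67.7 CPM, and 34.5 against 22.3 CPM), at 0.60 (SE 0.76), as was Tgfbr1 (83.2 against 77.3 CPM, and 123 against 110 CPM), at 0.17 (SE 0.54). EYFP was at 0 in all 4 Cd31- sums. Tgfbr3 was lower in KO in both (74.1 against 154 CPM, and 62.6 against 69.8 CPM), at -0.71 (SE 0.59). The cell make-up of the sums differed with genotype in preparation 1, where 26 of 42 WT wells and 9 of 40 KO wells were fibroblast-like. The 9 fibroblast markers summed to 31770 CPM in WT and 13504 CPM in KO there, and to 2904 and 6618 CPM in preparation 2. The part of this make-up in the values of Tgfb2, Tgfbr1, Tgfbr3, Ltbp1 and Ltbp3 was not tested. In the smooth muscle-like wells alone, Ltbp1 stood at 1440 (WT) and 1130 CPM (KO) in preparation 1. In preparation 2 it had the other order, at 809 (WT, 10 wells) and 1050 CPM (KO, 13 wells). Of the WT counts in preparation 1, 26.7% came from 1 well. The difference of the genotype contrast between the gates was called by edgeR for 0 members and 0% of 12729 genes, with 657 genes and 0 members at an unadjusted p of 0.05, and by DESeq2 for 46 genes and 0 members.

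Some genes that work around the members in the pathway also differed between the gates. Over all genes tested, 9.25% were called higher and 9.79% lower in Cd31- cells. Of 16 tested genes of latency and activation, 6 were higher and 4 lower in Cd31- cells, with a median log2 fold change of 0.67 against -0.15 over all genes. Higher were the integrin subunits Itgb5 (log2 fold change 3.13) and Itgav (2.06), which take part in releasing active TGF-beta, and the matrix proteins Fbn1 (3.16) and Fn1 (1.04). Lower were Lrrc32 (-2.51), which displays latent TGF-beta on the cell surface, Ltbp4 (-1.57) and Thbs1 (-4.46). Ltbp4 therefore had the opposite direction of Ltbp1, at 832 to 1530 CPM in Cd31+ and 203 to 490 CPM in Cd31- cells. Nrros, a relative of Lrrc32, was at 0 in all 4 Cd31- sums and stood at 4.25 to 7.84 CPM in the Cd31+ sums, at least 42.3-fold lower taking 3 counts over the gate as the floor. Nrros was not called when genotype and preparation formed a block (edgeR adjusted p = 0.0615).

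Among 9 other receptors and co-receptors, 1 was higher and 3 were lower in Cd31- cells (median log2 fold change -0.85). Cd109, a surface protein that binds TGF-beta, was higher (4.92). Eng, an endothelial co-receptor, stood at 577 to 842 CPM in Cd31+ and 17.3 to 95.3 CPM in Cd31- cells (-3.86), and the type I receptor Acvrl1 (-2.49) and the type II receptor Bmpr2 (-2.25) were also lower. Of 17 transducers and inhibitors, 1 was higher (Pmepa1, 1.60) and 3 were lower (median -0.52). Over all genes tested 9.25% were higher and 9.79% lower, so these calls set the list little apart. The 3 lower were the inhibitory SMAD genes Smad7 (-2.53) and Smad6 (-2.73) and Fkbp1a (-1.12), whose product binds the type I receptor. Of 17 response genes, 9 were higher and 1 was lower, with a median of 4.28. Those higher with the smallest edgeR p, which need not have the largest change, were Acta2 (5.19), Tagln (5.11), Cnn1 (6.35) and Col1a2 (6.10). The first 3 are also among the smooth muscle markers and Col1a2 among the fibroblast markers used to name clusters. The part of such cell type markers in the count and the median of this list was not tested. Klf10, an immediate response gene of TGF-beta, was lower (-1.96).

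Itgb5, Fbn1, Bmpr2, Eng, Smad7, Acta2, Tagln, Col1a2 and Cnn1 stayed past the threshold with each replicate left out. The other 12 of the genes named from these lists were not called without KO preparation 1, with edgeR adjusted p from 0.0516 (Itgav) to 0.206 (Fn1). Some of these 12 genes were also not called without another replicate. In the genotype comparisons edgeR called 0 of the listed genes. At an unadjusted p of 0.05, 6 genes of the 4 lists passed in Cd31+ cells, where 468 of all 12702 genes did. One of the 6 was Acvr2b at a log2 fold change of -3.87 (SE 1.04, edgeR adjusted p = 0.9995). It had few counts, 169 and 204 in the WT and 104 and 3 in the KO Cd31+ sums (preparations 1 and 2).

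**Figure D5:**
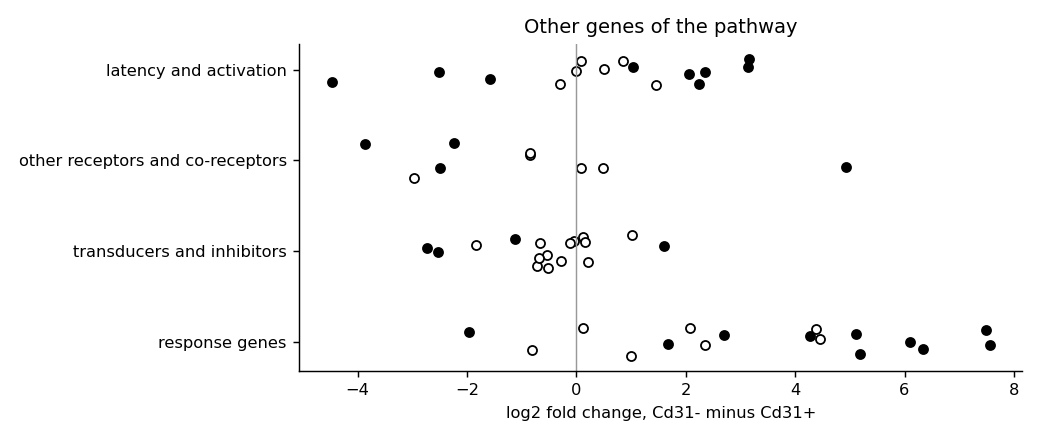
Log2 fold change between gates (Cd31- minus Cd31+) of the tested genes of 4 lists around the members, 1 point per gene, filled where the adjusted p was below 0.05. Nrros is not drawn, since all its Cd31- sums are at 0. Most called response genes lie above 0, and called genes of the other lists lie on both sides.

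The genes with the most similar pattern were sought by Pearson correlation of log2(CPM + 1) over the 8 sums, among genes with a mean of at least 20 CPM. The sums share plates and fall into 2 gates, so r follows mainly the difference between gates. For Ltbp1 these were Dkk3 (r = 0.996) and Hspb7 (0.996). For Tgfb3 they were C1qtnf2 (0.996) and Fam26e (0.991), and for Tgfb2 Slc25a4 (0.992) and Pls3 (0.990). For Tgfbr1 they were Rock1 (0.996) and Col4a2 (0.992). The leading r of the remaining members was between 0.927 (Ltbp3, with Cxcl1) and 0.993 (Smad2, with Mad2l2). Among the members themselves, Ltbp1 and Tgfb3 were the most alike after Tgfb2 and Tgfbr1 (r = 0.973 and 0.979).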

How the data were processed

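Gene counts of 1024 single wells were analysed. The authors aligned the Smart-seq2 reads with STAR 2.7.7a to GRCm38 with ERCC and EYFP sequences, removed duplicates with Picard 2.22.0 and deposited raw counts per gene from HTSeq 0.9.1 (annotation release not given in the sources used here). Library sizes exclude 92 spike-in lines (1.25% of counts) and 5 summary lines (46.9%). Duplicate removal without molecular identifiers can lower high counts.

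Kept wells were summed by gate, genotype and preparation. The sums were tested with edgeR 4.0.16 (glmQLFTest, TMM, filterByExpr) over all genes, with Benjamini-Hochberg adjustment. The study describes independent experiments with several mice per genotype, but the labels tie no sum to a mouse, so p-values measure the spread between preparations. DESeq2 1.42.0 was an alternative. Both were also run on simulated counts, drawn independently for each sum. The simulation had no shared plates and no differing cell make-up, so it does not cover such effects. No doublet caller was run on sorted wells. Clusters came from Seurat 5.3.0 with 2000 variable genes, 30 dimensions and resolution 0.5, without the listed genes among the variable ones, and were named from marker lists. The cluster with Tgfb2 stayed unnamed because 1 leukocyte marker was among its leading genes. Of 9 leukocyte markers 1 was detected and higher in it than in the other wells, as were 6 of 10 endothelial markers. Lengths and coordinates came from GENCODE M21. Exons of other genes overlap 12.4% of the exonic bases of Tgfb3 and at most 4.54% of those of the other members.

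The members and lists were chosen with earlier results of these data known. Named genes were the members, Amotl2 and EYFP, up to 4 genes per list and direction with the smallest p among those called between gates, and the 2 most similar genes per member. Acvr2b was chosen after its values were seen. The values of 1 listed gene that enters the counts are not reported here. The alternatives are in the closing section.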

Additional observations from a re-analysis of the deposited data

Results flagged for a closer look

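In 4 of 20 groups of 4 sums (each member in each gate), 1 sum stood apart from the others by Dixon's criterion at 95%, which chance alone meets in about 1 of 20 groups. Tgfb1 stood at 14.2 CPM in Cd31- WT preparation 2, where the next highest sum was at 0.754 CPM, and 13 of its 14 counts came from 1 well. Tgfbr2 stood at 77.2 CPM in Cd31+ WT preparation 1, below the next lowest at 123 CPM. Tgfbr3 stood at 154 CPM in Cd31- WT preparation 1, above the next highest at 74.1 CPM, and this sum had the highest fibroblast marker level (31770 CPM). Ltbp1 stood at 33.9 CPM in Cd31+ KO preparation 1, above the next highest at 10.6 CPM, and 1 well held 43.1% of its counts. The part of these wells and markers in the values was not tested.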

How the results depend on the processing

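All settings were planned with earlier results known. The 4 members called between gates were called under DESeq2, RLE factors, no low-count filter, both replicate blocks (4 members with the preparation and 4 with genotype and preparation as the block), deeper wells, thinned wells and wells of named clusters, and 3 to 4 were called with a replicate left out. The genes called between gates numbered 1004 to 1885 with a replicate left out, against 2423. No member was called between genotypes under any setting. Among all genes, those called in Cd31+ cells numbered 1 with RLE factors, 104 with no filter, 37 with DESeq2, 1 with the replicate block, 6 with thinned wells and 5 to 311 with a replicate left out. In Cd31- cells they numbered 24 with no filter, 5 with DESeq2 and 0 to 79 with a replicate left out, and for the difference between gates 163, 46 and 0 to 21. The labels do not state whether WT and KO sorts of the same number were prepared together. After removal of group means, the WT and KO sums of preparation 1 correlated by 0.146 in Cd31+ and 0.0855 in Cd31- cells. With 2 sums per genotype, these values also fix those of preparation 2, which add nothing separate. Beyond Nrros and EYFP (given above) the blocks changed no call of a named gene. Small uncalled log2 fold changes turned sign. Between gates, Tgfbr2 was 0.0231 with RLE factors, 0.0260 with DESeq2, 0.23 with thinned wells, 0.0172 in named clusters and -0.42 to 0.34 with a replicate left out, Smad3 was -1.31 to 0.0179 and Ltbp3 -0.24 to 0.54. Between genotypes in Cd31+ cells, Tgfb2 was -0.37 and Smad3 0.0587 with thinned wells, Tgfb3 was -0.0619 in deeper wells and -0.29 in endothelial clusters, and Tgfbr3 was -0.0027 there. With a replicate left out these were -0.44 to 0.46 (Tgfb2), -0.51 to 0.11 (Smad3), -0.49 to 0.54 (Tgfb3), -0.26 to 0.39 (Tgfbr3) and -0.28 to 0.13 (Tgfbr1). The causes were not tested. Fn1, Acvrl1 and Klf10 were not called between gates in deeper wells. The small Cd31- sums of preparation 2 limit the Cd31- comparisons.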

Other observations

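Members of the pathway were found in the same wells to different degrees, and not alike in both gates. Of the Cd31+ wells with a Tgfb3 count, 21.3% also had an Ltbp1 count, against 6.01% of those without, and after thinning to 20000 counts the shares were 20% and 3.60%. Of the Cd31+ wells with a Tgfbr2 count, 56.5% also had a Tgfbr3 count, against 39.1% of those without, and after thinning 42.0% and 29.5%. For Tgfbr1 and Tgfbr2 the thinned shares were close to each other, at 50.3% and 47.3%. In Cd31- wells the shares for Ltbp1 by Tgfb3 count were 92.0% and 95.2%, and thinned 89.0% and 91.4%. For Tgfbr3 by Tgfbr2 count they were 66.7% and 46.2%, and thinned 57.6% and 34.7%, and for Tgfbr2 by Tgfbr1 count 58.8% and 72.5%, and thinned 47.9% and 60%. Wells of a gate share preparations and are not replicates, so these shares were not tested, and the 16 Cd31+ wells in smooth muscle-like and fibroblast-like clusters are among them.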
